A study of Mus musculus with 6 samples.

Results

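The scavenger receptors described here are 9 genes of the 25780 tested on arrays of islet cells with and without T lymphocyte exosomes. They are Olr1 (class E), Msr1, Marco, Scara5 and Colec12 (class A), Cd36 and Scarb1 (class B), and Stab1 and Stab2 (class H). Probes were assigned by RefSeq accession, 12 probes matched, and for each gene the probe with the highest mean processed signal over the 6 arrays was used. The choice set aside a second probe for Msr1 (mean signal 51.2, against 76.9 for the probe used), Scarb1 (66.0 against 1053) and Scara5 (14.2 against 42.2). All 9 entered the fit, and 8 of them were well above background on all 6 arrays; Olr1 was not. The genes were chosen with results of these arrays known, so the p-values below describe these arrays and are not independent support.

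Scavenger receptors are cell surface proteins that bind modified lipoproteins, dead cells, microbes and matrix fragments and carry them into the cell. They are grouped into classes by structure and not by common descent. Class A receptors are trimers with a collagen-like or coiled-coil stalk, class B receptors cross the membrane at both ends, the class E receptor is a C-type lectin, and class H receptors are giant proteins of sinusoidal endothelium and macrophages. In pancreatic islets these genes are mostly read as genes of resident macrophages, endothelium and stroma, while Scarb1 and Cd36 also move lipid in many other cells.

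The exoNOD group (3 arrays) held islet cells given exosomes, small secreted vesicles, at 50 µg/ml for 72 h. The vesicles came from medium of CD4+CD25- T lymphocytes, and the lymphocytes from NOD mice, which become diabetic through autoimmunity. The control group (3 arrays) held islet cells cultured as long with no exosomes. In both groups the islets were of C57Bl/6N males and had been dispersed into single cells, a mixture that can hold macrophages, endothelial cells and fibroblasts beside the endocrine cells, and each of the 3 experiments had its own islet and exosome preparations. A level below is a log2 signal after subtraction of the array's 75th percentile, and a change is the mean exoNOD level less the mean control level.

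The arrays had 75th percentiles of signal between 812 and 890, between 78.1% and 81.8% of spots well above background, and 0 saturated spots. Hormone transcripts marked the cells as islet cells, with Ins2 (insulin) at a level of 8.63 ± 0.02 in exoNOD and 8.70 ± 0.05 in control cells (SD, n = 3) and Gcg (glucagon) at 8.58 ± 0.01 in exoNOD and 8.68 ± 0.04 in control cells. By the scan times, the 3 control arrays and exoNOD replicate 1 were scanned together, and exoNOD replicates 2 and 3 in a second scan. Equal replicate numbers behaved as pairs across genes, so a fit with the replicate number as a block is given beside the fit without it. Without the block, 27 of 25780 genes (0.105%) passed an adjusted p of 0.05, and with the block 2256 (8.75%) passed.

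Olr1 and Colec12 stood out from the other receptors. Scaled signal on exoNOD arrays was 2.38 times that of control arrays for Colec12. For Olr1, above background on 1 of 3 control arrays, the ratio had no fixed size: it was 7.25 from the signals as they stand, 3.95 in the authors' values, 2.70 with control values raised to background and 2.14 after normexp background correction. For both genes the exoNOD arrays lay above every control array. Marco, Msr1, Scara5, Cd36, Stab2 and Scarb1 had smaller positive differences, and Stab1 had a negative one. None of the 9 passed in limma without the block, where 0.101% of all genes passed upward. At an unadjusted p under 0.05 there were 2 of 9, Olr1 and Colec12, against 16.6% of all genes. With the replicate block these 2 of 9 rose, against 6.92% of all genes, 0 fell, against 1.83%, and 7 did not pass. Olr1 entered the fit through its exoNOD arrays alone, so its place in these counts rests partly on the filter on dim probes, and Colec12 is the called receptor measured on all 6 arrays.

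**Figure D1:**
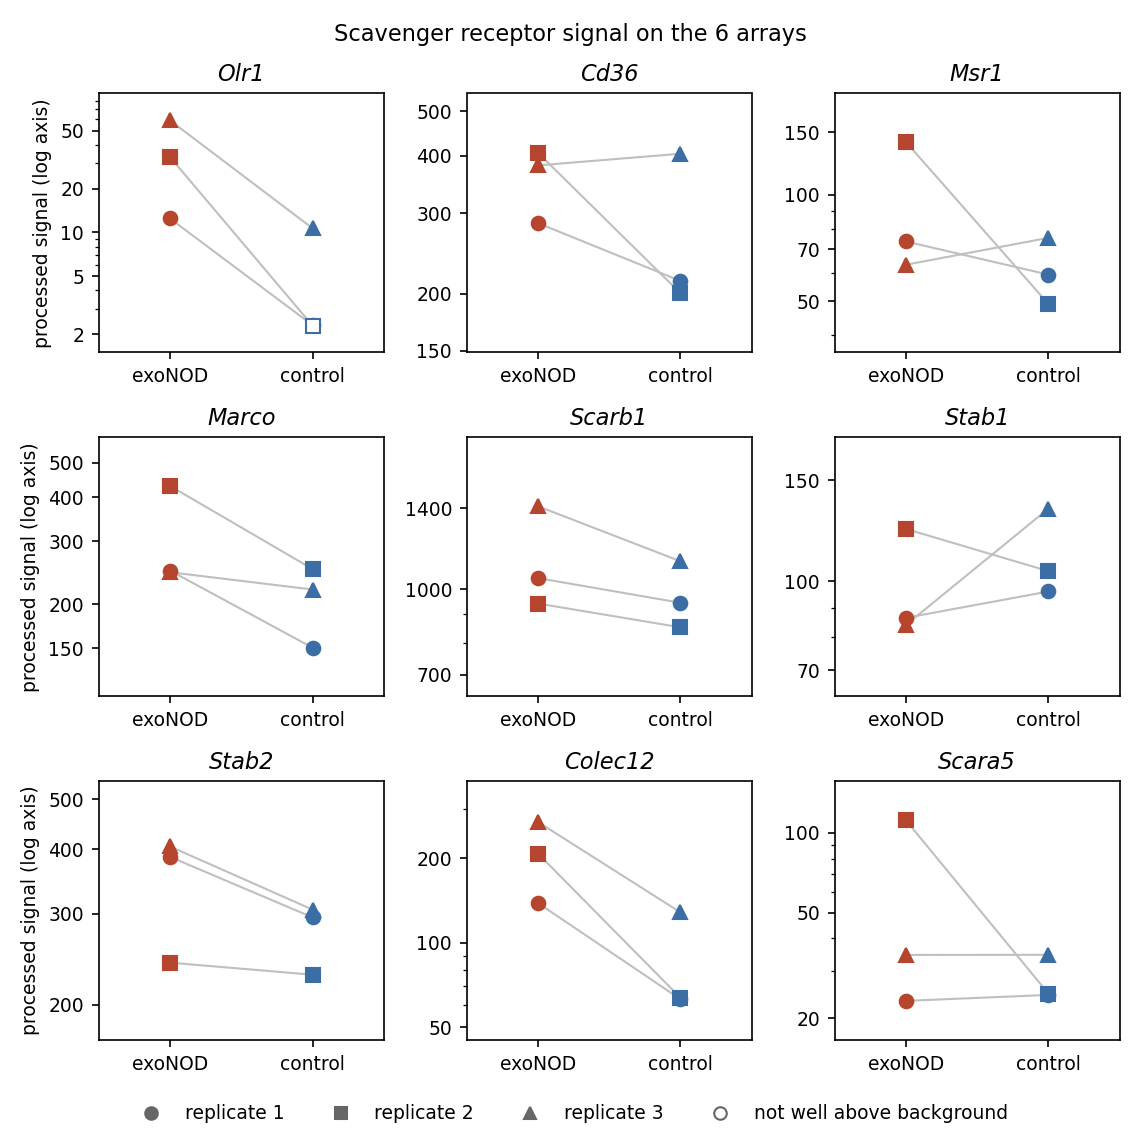
Processed signal (log axis) of the 9 scavenger receptors on exoNOD and control arrays; each point is 1 array, lines join equal replicate numbers, and open symbols are arrays where the probe was not well above background. Olr1 and Colec12 are the genes whose exoNOD points all lie above their control points, while Scara5 and Msr1 are high on exoNOD replicate 2 alone.

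Olr1 encodes LOX-1, the lectin-like receptor for oxidised low density lipoprotein, known from activated endothelium, macrophages and smooth muscle and inducible by inflammatory cytokines. Its probe gave processed signals of 12.5, 33.0 and 58.9 on the exoNOD arrays (replicates 1, 2 and 3), against 2.31, 2.29 and 10.7 on the control arrays. The exoNOD arrays were all well above background, whereas among controls this held for replicate 3 only, and the signals of control replicates 1 and 2 are not measured levels. On the log2 scale Olr1 averaged −4.93 ± 1.11 in exoNOD and −7.79 ± 1.33 in control cells (SD, n = 3). The log2 change was 2.86 ± 0.71 (SE; 95% interval 1.24 to 4.48; limma adjusted p = 0.151). With the replicate block the interval was 2.09 to 3.62 and the adjusted p 0.00182. These values use the unmeasured control signals of a gene that passed the filter through exoNOD only, and Olr1 is not in the fit when a probe must be above background on all 6 arrays.

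The size of the Olr1 difference depends on how the dim controls are treated. When values under the lowest level well above background on their array were set to that level, an alternative chosen after seeing the data, the log2 change was 1.43, a 2.70-fold difference (adjusted p = 0.233, and 0.0323 with the block). Without the floor all 3 pairs were positive, with log2 differences of 2.40, 3.85 and 2.33 for replicates 1, 2 and 3. For replicates 1 and 2 these subtract control signals that were not above background. With the floor the levels of replicates 1, 2 and 3 were −6.12, −4.74 and −3.92 on exoNOD arrays. On control arrays they were −6.41, −6.43 and −6.25. The lowest exoNOD array lay 0.13 above the highest control in log2 level without the floor, and 0.25 below it after normexp background correction. Control replicate 3 was the highest control and the only one above background. Without it the log2 change was 3.63 (limma adjusted p = 0.0440). The controls left in that fit were not above background, so 3.63 is not a measured difference. Without exoNOD replicate 1 the change was 3.46 (0.0429).

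The start region of Olr1 is shown because Olr1 is the member with the greatest change and the response elements of inducible factors can be looked up in it. The 250 bases before the start are from RefSeq (GRCm38.p6, chr6:129507166-129507415, minus strand), 5′ to 3′ on the gene's strand, with matches to the motifs searched in capitals.
Olr1: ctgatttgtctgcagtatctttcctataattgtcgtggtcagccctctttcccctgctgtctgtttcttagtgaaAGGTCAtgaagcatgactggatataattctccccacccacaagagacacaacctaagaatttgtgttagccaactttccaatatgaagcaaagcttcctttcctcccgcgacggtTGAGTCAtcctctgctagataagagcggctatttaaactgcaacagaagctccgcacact

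The capitals are a nuclear receptor half-site, AGGTCA, lying 175 to 170 bases before the start, and TGAGTCA, the reverse complement of the AP-1 motif TGACTCA, lying 60 to 54 bases before it. On both strands, TGACTCA occurs in 4.46% and AGGTCA in 14% of the 32851 start regions of the same length. TGANTCA, which includes TGACTCA, occurs in 6.75% and marks the same bases of Olr1. The NF-kB consensus (7.25% of regions), the STAT motif TTCNNNGAA (7.02%), the NRF2 motif TGACNNNGC (10.2%), the HIF core motif, A or G before CGTG (38.6%), and a DR1 pair of half-sites (0.0335%) did not occur in these letters. Start regions were at hand for 5 of the 9 genes. Of these, Cd36 and Stab2 also held AGGTCA, Olr1 alone held TGACTCA, and Marco and Stab1 held none of the motifs.

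Colec12 encodes a class A receptor that carries a collagen-like stalk and a C-type lectin domain and is known from endothelium and stromal cells. Its signals were 139, 208 and 270 on exoNOD arrays, against 62.9, 63.6 and 128 on control arrays. Every array was above background, and control replicates 1 and 2 were alike and low while control replicate 3 lay close to exoNOD replicate 1. Levels averaged −2.15 ± 0.47 in exoNOD and −3.40 ± 0.64 in control cells (SD, n = 3). The log2 change was 1.25 ± 0.34 (SE; 95% interval 0.49 to 2.01; limma adjusted p = 0.176), and 0.710% of genes tested had a greater rise. With the replicate block the interval was 0.88 to 1.62 and the adjusted p 0.00226.

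The pairs of Colec12 differed by 1.1, 1.71 and 0.94 on the log2 scale. The groups separated by only 0.013 on that scale, and they overlapped by 0.0065 after scaling by the median of the array. Groups that do not overlap, with exoNOD higher, were found for 2 of 9 receptors, Olr1 and Colec12, and for 14.6% of all genes. Groups that do not overlap with exoNOD lower were found for 0 receptors and 7.78% of all genes. Olr1 entered the fit through its exoNOD arrays alone, and its groups overlapped after normexp background correction. Its place in this count is therefore not support for a difference. The change of Colec12 remained past the threshold with the block after quantile normalization (1.12, adjusted p = 0.00943) and in the authors' values (1.12, 0.00934).

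The other class A receptors did not pass in either fit. Marco, a bacteria- and particle-binding receptor of macrophages, had signals of 249, 430 and 246 on exoNOD arrays, against 151, 251 and 220 on control arrays. In signal, exoNOD replicates 1 and 3 lay just under control replicate 2, and exoNOD replicate 2 stood above the rest. Its log2 change was 0.49 (95% interval −0.09 to 1.08; adjusted p = 0.360, and 0.0686 with the block, where the interval was 0.16 to 0.83), with pairs at 0.68, 0.77 and 0.029.

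Msr1, the founding class A receptor and a macrophage gene that takes up acetylated low density lipoprotein, had signals of 73.7, 141 and 63.3 on exoNOD arrays, against 59.4, 49.0 and 75.5 on control arrays. The groups overlapped, with exoNOD replicate 2 alone above all controls. The log2 change was 0.47 (95% interval −0.24 to 1.18; adjusted p = 0.464, and 0.319 with the block). Its second probe gave a similar pattern, with pairs at 0.14, 1.45 and −0.33 against 0.27, 1.52 and −0.38 for the probe used.

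Scara5, a class A receptor that binds ferritin and is known from fibroblasts and epithelium, had signals of 23.2, 112 and 34.6 on exoNOD arrays, against 24.5, 24.7 and 34.7 on control arrays. Only exoNOD replicate 2 lay above the controls, exoNOD replicate 1 lay below them, and the log2 change of 0.64 (95% interval −0.50 to 1.79; adjusted p = 0.531, and 0.307 with the block) rests on replicate 2. Without exoNOD replicate 2 the change was −0.014. The second Scara5 probe, matched to another RefSeq transcript, gave 16.3, 21.6 and 15.8 on exoNOD arrays, against 9.96, 10.2 and 11.1 on control arrays. It was well above background on 3 exoNOD arrays and 1 control array, its pairs were at 0.67, 1.08 and 0.37, and it was positive in pairs 1 and 3 where the probe used was negative, so the Scara5 probes disagree.

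Neither class B receptor passed in either fit. Cd36, which takes up long-chain fatty acids and oxidised lipoprotein and binds thrombospondin, had signals of 285, 406 and 381 on exoNOD arrays, against 213, 200 and 404 on control arrays. In signal, control replicate 3 lay among the exoNOD arrays while the other controls were lower than all of them. In level, control replicate 3 was the highest array, at −1.01 against −1.61, −1.12 and −1.22 on exoNOD arrays. The log2 change was 0.39 (95% interval −0.25 to 1.04; adjusted p = 0.495, and 0.207 with the block). Without control replicate 3 it was 0.75, and the pairs were at 0.38, 1.02 and −0.22.

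Scarb1 encodes SR-BI, the receptor for high density lipoprotein. Its signals were 1047, 942 and 1413 on exoNOD arrays, against 944, 853 and 1123 on control arrays. The groups overlapped, and the log2 change was 0.15 (95% interval −0.26 to 0.56; adjusted p = 0.692, and 0.266 with the block). All 3 pairs were small and positive, at 0.11, 0.14 and 0.20, while the second probe gave 0.023, −0.069 and −0.092.

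The stabilins, class H receptors that clear hyaluronan, matrix fragments and modified proteins, differed in sign, and neither passed in either fit. Stab1 had signals of 86.4, 123 and 84.0 on exoNOD arrays, against 96.0, 104 and 134 on control arrays, with exoNOD replicates 1 and 3 under every control. Its log2 change was −0.25 (95% interval −0.73 to 0.23; adjusted p = 0.558, and 0.414 with the block), and after normexp background correction it was 0.42. Stab2 had signals of 387, 241 and 405 on exoNOD arrays, against 295, 229 and 306 on control arrays, with exoNOD replicate 2 among the controls. Its log2 change was 0.23 (95% interval −0.28 to 0.75; adjusted p = 0.616, and 0.195 with the block).

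**Figure D2:**
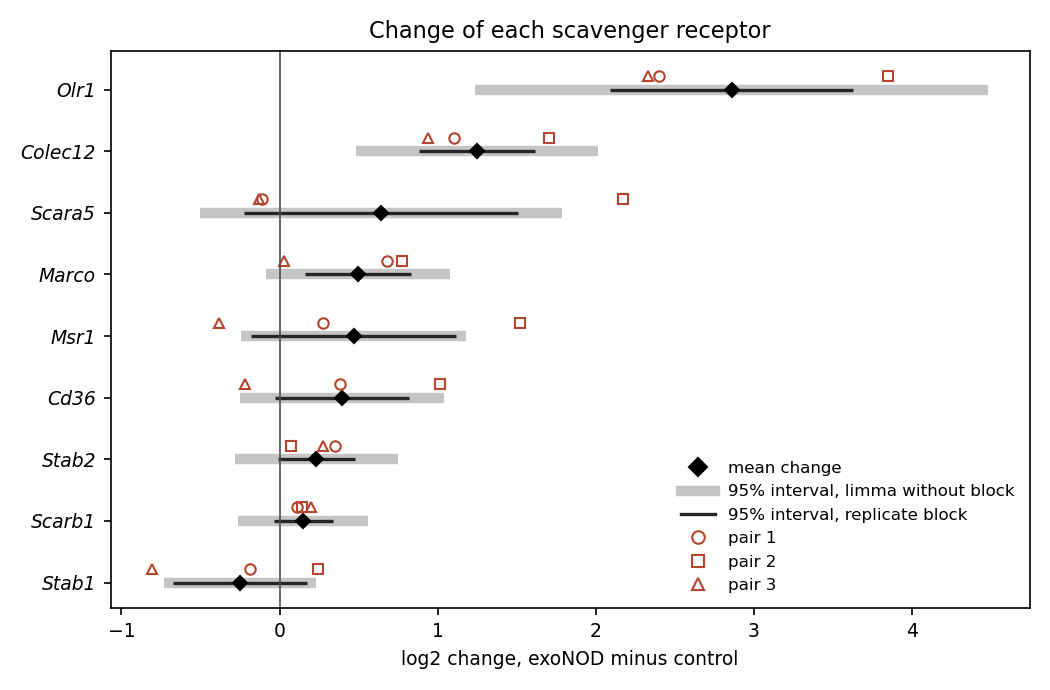
Log2 change (exoNOD minus control) of each scavenger receptor, with the 95% interval of limma without a block (wide grey bar) and with the replicate block (thin dark line) and the difference of each pair of equal replicate number (open symbols). The intervals of Olr1 and Colec12 lie above 0 in both fits, and pair 2 gives the most positive difference for Olr1, Colec12, Scara5, Marco, Msr1, Cd36 and Stab1.

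Across the 9 receptors, 8 differences were positive, against 55.4% of all genes tested, and the median log2 change was 0.47, against 0.035 for all genes. The receptors were chosen with results of these arrays known, and Olr1 passed the filter through exoNOD only. The signs of Msr1, Scara5, Scarb1 and Stab1 turned in some settings, so this count and median are not read as a trait of the receptors. Olr1, Colec12, Marco, Scarb1 and Stab2 were positive in all 3 pairs, as were 29.0% of all genes. Of these, Olr1 pairs 1 and 2 subtract control signals that were not above background, and Marco pair 3 was 0.029. The second Scarb1 probe was negative in pairs 2 and 3. Pair 2 was positive for 9 of 9, pair 1 for 7 and pair 3 for 5. The shares of all genes per pair are not given, so these counts are not read as a trait of the receptors. Within the controls, replicate 3 was the highest array for 8 of 9 receptors, Marco being the exception, and for 41.0% of all genes tested. Within exoNOD, replicate 2 was the highest for Cd36, Msr1, Marco, Stab1 and Scara5, and for 44.3% of all genes. The labels do not say which arrays share a preparation, and the part of the preparation in the receptor differences was not tested.

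The scans of the arrays bear on every member. In the scan that holds both groups, exoNOD replicate 1 is the only exoNOD array, and it differed from the mean of the 3 controls by 1.66 for Olr1, whose control mean includes the dim arrays, and 0.75 for Colec12. A single exoNOD array carries this comparison, and it is given as values. It lay above all 3 controls for Olr1, Colec12, Marco and Stab2, by 0.13, 0.013, 0.0081 and 0.24, and below all 3 for Stab1 and Scara5. The same differences came from a fit with the scan as a block, in which the second scan holds no control.

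The patterns of the 8 members above background on all arrays were compared with those of 16684 named genes by Pearson's r over the 6 arrays, as a description. The genes most like Colec12 were Tmem200a (r = 0.996), Foxf2 (0.994), a transcription factor of mesenchyme, and Zeb2 (0.993), a transcription factor of mesenchymal and neural crest cells. Those most like Cd36 were Serpinb6b (0.995), the chemokine gene Ccl3 (0.994) and Gm35438 (0.993). Those most like Stab1 were Hcls1 (0.992), a signalling protein of blood cells, Tmem170 (0.9865) and Nuak1 (0.978). The closest gene was Dio3os for Msr1 (0.994), Parp11 for Marco (0.996), Gc for Scarb1 (0.999), Mybl1 for Stab2 (0.998) and Scgb1a1 for Scara5 (0.998). Whether any likeness reflects a cell type was not tested. So few arrays of so few preparations give many high values: 751 genes had r over 0.9 with Colec12 and 64 with Stab1.

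Olr1 lies in a cluster of C-type lectin genes. Of the 5 protein-coding genes on either side in RefSeq order, chosen after the values of Olr1 were seen, 4 entered the fit and 0 passed with or without the block in limma. The lectin genes Clec1b, Clec9a and Clec12b changed by 0.42, 0.43 and −0.11, and Gabarapl1, an autophagy gene, by −0.17. The other neighbours, Clec1a, Tmem52b, Klre1, Klrd1 and Klrk1, were on the array but not above background on all arrays of a group, and Clec7a had no matched probe.

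Among other scavenger and uptake receptors the greatest change was that of Mrc1. Of 19 genes, 15 were tested, 0 passed without the block (2 at an unadjusted p under 0.05), and with the block 3 rose and 0 fell. Beside this list and those below, 6.92% of all genes rose and 1.83% fell with the block. Without it 16.6% of all genes were at an unadjusted p under 0.05. The median log2 change was 0.070. Mrc1, the macrophage mannose receptor, had signals of 44.8, 80.2 and 74.96 on exoNOD arrays, against 12.2, 10.1 and 20.04 on control arrays. Only control replicate 3 was above background among the controls, and every exoNOD array lay above every control. The log2 change of Mrc1 was 2.20 ± 0.33 (SE; limma adjusted p = 0.0599, and 0.00175 with the block). Like Olr1, Mrc1 passed the filter through exoNOD only; with the floor at background its change was 2.19 and after normexp correction 1.3.

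Axl, a receptor kinase for dead cells, rose with the block by 0.60 (adjusted p = 0.0222; 0.253 without it), and Scarf1, an endothelial receptor for modified lipoprotein, by 0.61 (0.0459; 0.317 without it). Neither passed with the block in the authors' values (adjusted p = 0.0557 for Axl and 0.118 for Scarf1) or without replicate 2 (0.152 and 0.168), nor did Scarf1 without replicate 3 (0.224). Megf10, an engulfment receptor, changed by 0.63 and did not pass (0.164 with the block). Clec7a and Cd68 had no matched probe, and Cd163 and Timd4 were not above background on all arrays of a group.

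**Figure D3:**
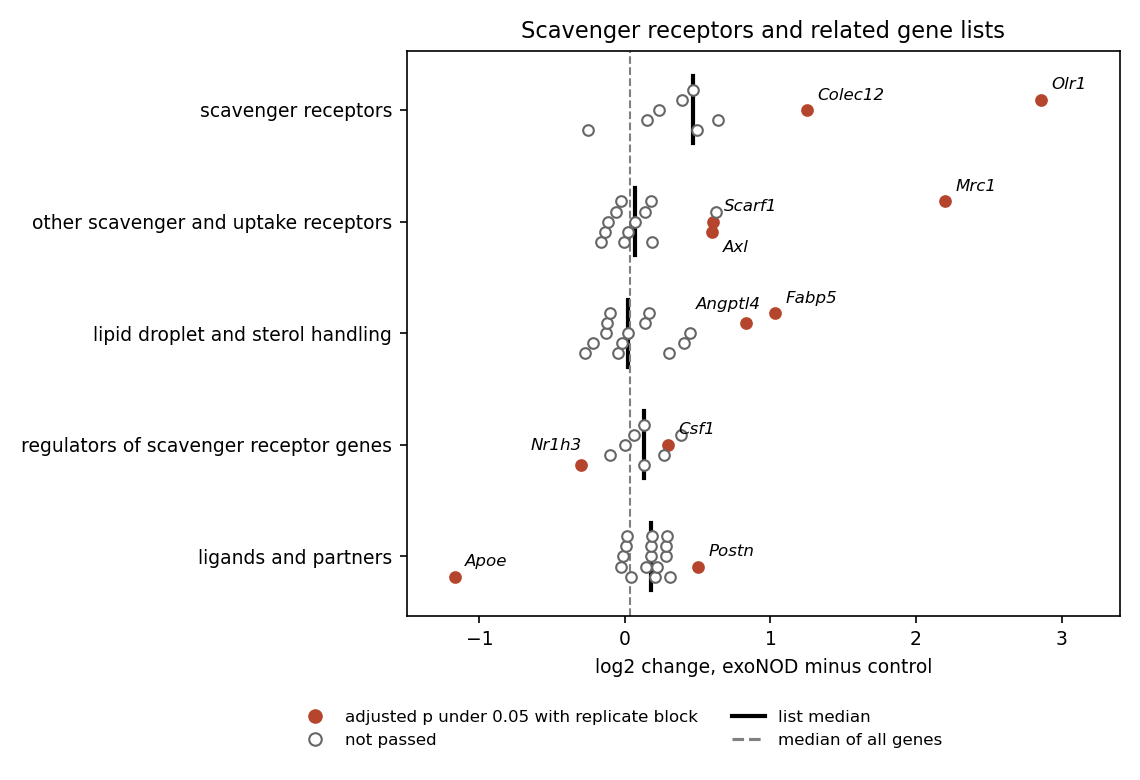
Log2 change (exoNOD minus control) of the scavenger receptors and of 4 lists of related genes; each point is a gene, filled where the adjusted p was under 0.05 with the replicate block, black bars are list medians and the dashed line is the median of all genes (0.035). Olr1 and Mrc1 lie farthest to the right and Apoe farthest to the left.

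Among genes that handle lipid taken up by such receptors, Fabp5 and Angptl4 were the ones that rose with the block. Of 15 tested, 0 passed without the block (2 at an unadjusted p under 0.05), and with it 2 rose and 0 fell, with a median log2 change of 0.024. Fabp5, a fatty acid carrier, had signals of 4394, 2783 and 7932 on exoNOD arrays, against 1799, 1587 and 3540 on control arrays. It changed by 1.03 ± 0.41 (adjusted p = 0.271, and 0.000619 with the block), with all pairs positive but the groups overlapping at control replicate 3. Angptl4, an inhibitor of lipoprotein lipase, rose by 0.83 with the block (0.00194; limma adjusted p = 0.265 without it). All its pairs were positive, but in level exoNOD replicates 1 and 2 lay under control replicate 3.

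The lipid droplet gene Plin2 changed by 0.31 (adjusted p with the block 0.0542), Pla2g7 by 0.41 (0.0934), Fabp4 by −0.27 (0.392), the lipase Lpl by −0.12 (0.383) and the sterol exporter Abcg1 by −0.22 (0.152), and none of these passed. Among 9 tested regulators of scavenger receptor genes, 0 passed without the block (1 at an unadjusted p under 0.05). With the block the macrophage growth factor Csf1 rose by 0.30 (0.0445) and the oxysterol receptor Nr1h3 fell by 0.30 (0.0414). Pparg, a fatty acid receptor known to drive Cd36 in macrophages, changed by 0.0014 (0.993), and Rxra by 0.39 (0.104). The list median was 0.13.

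Of 17 tested ligands and partners, 1 fell without the block, Apoe, and with the block Postn also rose. Apoe encodes a lipoprotein ligand taken up with lipid particles. It had signals of 1471, 1809 and 1918 on exoNOD arrays, against 3403, 4071 and 3728 on control arrays, and changed by −1.17 (limma adjusted p = 0.0287). With single arrays left out the adjusted p lay over 0.05 without exoNOD replicate 2 (0.143), exoNOD replicate 3 (0.0544), control replicate 1 (0.124) or control replicate 2 (0.145), and it was 0.101 with no filter on dim probes and 0.349 with the scan as a block. Postn, a matrix protein of stromal cells, changed by 0.50 (0.526, 0.00629 with the block, and 0.0684 with the block and without replicate 2). Sparc, a ligand of Stab1, changed by 0.28 (0.109 with the block), Thbs1, a ligand of Cd36, by 0.19 (0.314), and the receptors Tlr2 and Tlr4, partners of Cd36, by 0.28 (0.0644) and 0.31 (0.390). These 4 did not pass, and the list median was 0.18.

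Markers of the cells that carry these receptors did not all move one way. In bulk RNA, fewer cells of a type and less RNA per cell cannot be told apart. Of 13 tested macrophage markers, 11 were above background on all 6 arrays, and their summed signal, in units of the 75th percentile of the array, was 25.0 to 27.5 on exoNOD arrays and 30.8 to 33.9 on control arrays. Itgam alone made up 12.0 to 13.2 of it on exoNOD arrays and 17.2 to 18.6 on control arrays, and the other 12 markers summed to 11.8 to 15.4 on exoNOD arrays and 12.6 to 15.3 on control arrays, which overlap. With the block 1 rose, Mrc1, against 6.92% of all genes, and Mrc1 passed the filter on dim probes through exoNOD only. Against 1.83% of all genes, 3 fell, Itgam (−0.50, adjusted p = 0.00891), Adgre1 (−0.87, 0.0157) and Aif1 (−0.62, 0.00652), while 9 did not pass. Itgam changed by 0.056 when its probes were averaged, and after normexp correction Adgre1 changed by −0.058 and Aif1 by −0.055. Csf1r changed by −0.019, and the list median was −0.050. The part of macrophages in the differences of Olr1, Msr1, Marco and Stab1 was not tested.

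Endothelial markers summed to 10.6 to 11.4 on exoNOD arrays and 10.2 to 11.6 on control arrays, and of 10 tested, Plvap rose with the block by 0.43 (adjusted p = 0.0210), while Egfl7 (−0.68, 0.00379), Emcn (−0.98, 0.0396) and Cdh5 (−0.80, 0.0347) fell. The lymphatic and sinusoidal endothelial markers, which bear on Stab2, summed to 0.619 to 0.836 on exoNOD arrays and 0.573 to 0.706 on control arrays, and 0 of 4 passed in either fit (0 at an unadjusted p under 0.05 without the block). The fibroblast markers, which bear on Colec12 and Scara5, summed to 55.1 to 77.9 on exoNOD arrays and 43.1 to 65.7 on control arrays. Of 9 tested, Pdgfra (1.23, 0.0130) and Thy1 (0.45, 0.0315) rose with the block and 7 did not pass. Among markers of the islet and exocrine cells, the beta cell sum was 1037 to 1046 on exoNOD arrays and 1062 to 1129 on control arrays. With the block 5 of 8 beta cell markers fell, against 1.83% of all genes. The alpha and delta cell sum was 472 to 494 on exoNOD arrays and 504 to 547 on control arrays, and the duct sum 7.03 to 9.31 on exoNOD arrays and 4.53 to 6.73 on control arrays. The part of any of these cell types in the receptor differences was not tested.

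**Figure D4:**
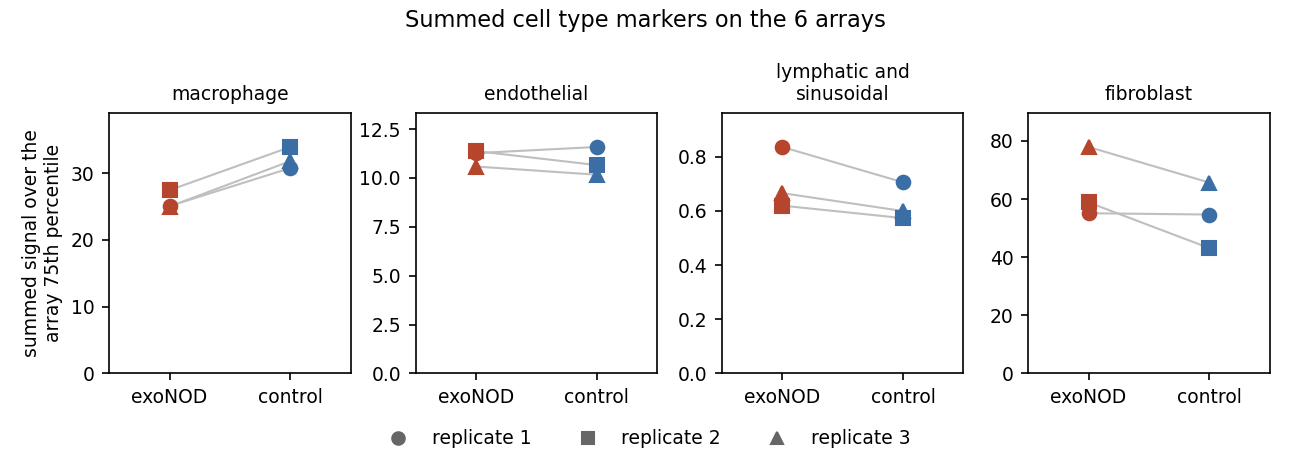
Summed signal of the markers of 4 cell types, in units of the 75th percentile of the array, on exoNOD and control arrays; points are arrays and lines join equal replicate numbers. The macrophage sum is lower on all 3 exoNOD arrays (25.0 to 27.5) than on the control arrays (30.8 to 33.9). It is lower through the Itgam probe used, without which the groups overlap (11.8 to 15.4 and 12.6 to 15.3). With its probes averaged, Itgam changed by 0.056. The endothelial, lymphatic and sinusoidal, and fibroblast sums overlap.

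**Figure D5:**
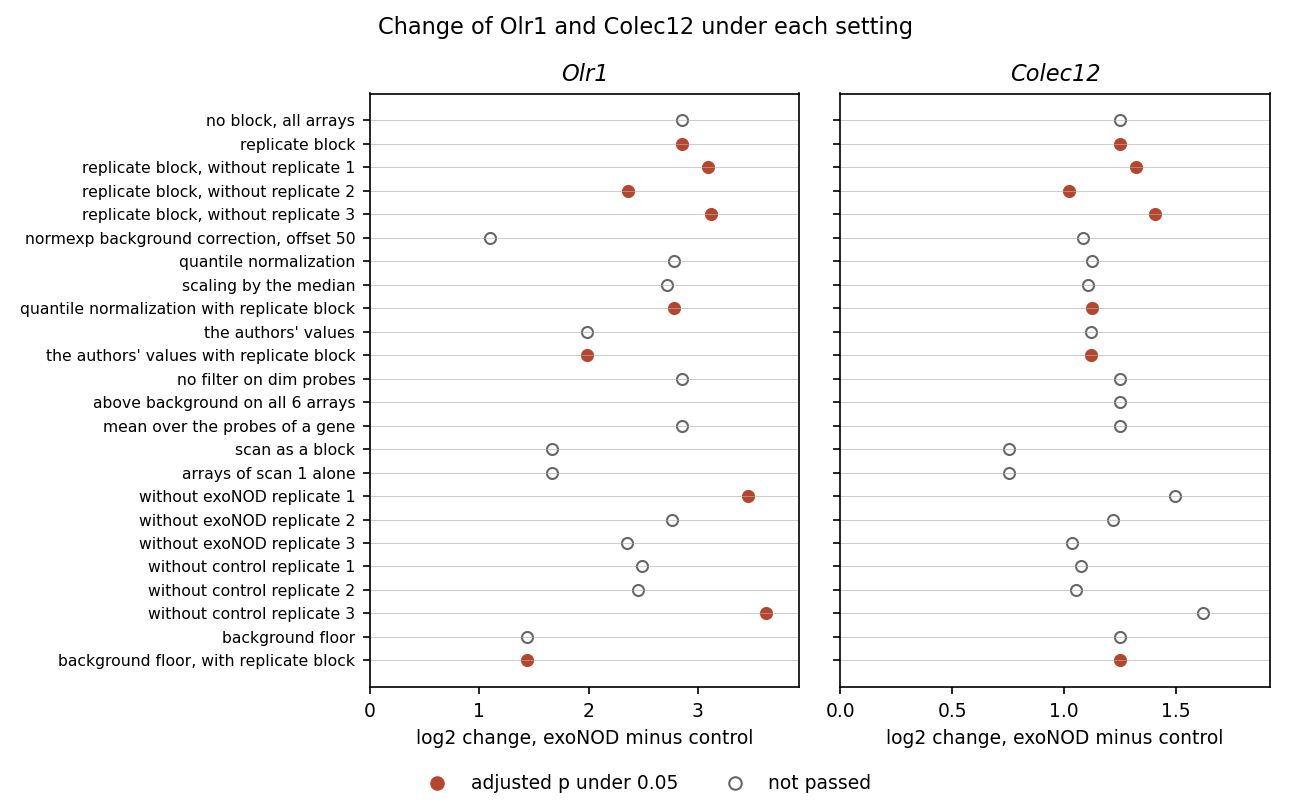
Log2 change (exoNOD minus control) of Olr1 and Colec12 under each processing setting, filled where the adjusted p was under 0.05. All values are positive, Olr1 lies between 1.1 and 3.63 and Colec12 between 0.75 and 1.62, and apart from Olr1 without exoNOD replicate 1 or control replicate 3, the filled points are those of fits with the replicate block.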

How the data were processed

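Total RNA of 6 cultures was labelled with Cy3 and measured on 1-colour Agilent mouse arrays, 1 per culture. Processed signals are deposited as intensities that Agilent Feature Extraction 11.0.1.1 had corrected for background and spatial trend, per the file headers. The spot flags are other values, 0 or 1, per the file headers. A table of the authors' values is deposited on the log2 scale; after centring it differed from quantile-normalized processed signal by a median of 0.000189 to 0.000372 per array, and its making is not given in the sources used here.

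Flagged spots were left out, log2 signals were averaged per probe and reduced by the array's 75th percentile. Of 39429 probes, 23 lost to flagged spots were dropped, and 31054 passed background on every array of 1 group or more. The brightest probe represented each gene (25780 genes; 27234 probes were named through RefSeq accessions). limma 3.58.1 in R 4.3.3 (files read with data.table, version 1.17.8; eBayes with trend, two-sided, Benjamini-Hochberg over all genes, threshold 0.05) gave every adjusted p, and its code was tested on simulated data. Precision is limited by the number of arrays.

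The labels do not tie equal replicate numbers to a preparation. Across genes, deviations from group means correlated at 0.366, 0.280 and 0.481 for arrays that share a number, and from −0.341 to 0.00875 for the others. Deviations cancel within a group, so high values for shared numbers push the others down, and the others are not separate support. On the values for shared numbers the arrays were taken as pairs, and a fit with the replicate number as a block is given too. This pairing was read from the same arrays that the block is fitted to. Normexp used the median foreground signal, where the plan named the mean signal, and the planned protein comparison was not run.

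Members and lists were chosen with earlier results of these data known. By rule the text names all 9 receptors, from each list of related genes the 4 with the lowest unadjusted p, and Pparg, Nr1h3, Plin2, Fabp4, Lpl, Tlr2, Tlr4, Thbs1 and Apoe; 1 gene taken by this rule is not reported here. The markers and neighbours named were chosen after their values were seen. Alternatives were the block, background correction, scaling, the authors' values, filters on dim probes, averaging of probes, the scan, single arrays and, added after seeing the data, a floor at background and the macrophage sum without its brightest marker. The probes were designed on mm9, another build than that of the start region shown.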

Additional observations from a re-analysis of the deposited data

How the results depend on the processing

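Without the block 27 genes and 0 of the 9 receptors passed (2 at an unadjusted p under 0.05). With the replicate block 2256 genes and 2 receptors, Olr1 and Colec12, passed. The other 7 receptors did not pass with or without it. In this balanced design the block alters the interval and the p-value, and it cannot alter the log2 change. The block gave 1251 genes after quantile normalization, 1257 in the authors' values and 2235 with the floor at background, each with 2 receptors. With the block and 1 pair left out, 431 to 4162 genes and 2 to 6 receptors passed: 4162 and 3 without replicate 1, 431 and 2 without replicate 2, 1729 and 6 without replicate 3. Olr1 and Colec12 were past the threshold each time, joined by Scara5 (1.02) without replicate 1, and by Cd36 (0.70), Msr1 (0.90), Marco (0.73) and Scara5 (1.03) without replicate 3.

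Without the block, normexp gave 157 genes and scaling by the median 13. No filter on dim probes gave 0 (4637 at an unadjusted p under 0.05), and the scan as a block and scan 1 alone each gave 0 (929 and 1143). With 1 array left out, 0 to 1269 genes and 0 to 1 receptor passed, Olr1 being the one, without exoNOD replicate 1 (1269 genes) or control replicate 3 (75 genes). Without control replicate 3, Olr1 was above background on none of the controls left. Quantile normalization, the authors' values, a filter on all 6 arrays, probe means and the floor gave 19 to 39 genes and 0 receptors.

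Signs turned for Msr1 (−0.056, block without replicate 2), Scara5 (−0.12 there, −0.29 in both scan settings), Stab1 (0.42 with normexp, 0.025 in the block without replicate 3), Scarb1 (−0.012 to 0.29 with 1 array left out) and Scara5 (−0.014 to 1.11 likewise). Olr1 (1.1 to 3.63, 22 settings) and Colec12 (0.75 to 1.62, 23 settings) were positive in every one. The median of all genes moved to 0.35 with normexp and −0.11 with median scaling, and the share of rises among genes at an unadjusted p under 0.05 was 79.7% as reported, 57.6% after quantile normalization, 57.4% in the authors' values, 41.8% with median scaling and 40.3% with normexp. The causes were not tested. Signal near background limits Olr1, whose controls were above background on 1 of 3 arrays, and 3 arrays per group, with 1 exoNOD array in the scan of the controls, limit all results.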
